A study of Mus musculus with 4 samples.

Results

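Phospho-CREB occupancy was examined at 10 mouse genes for dual-specificity phosphatases that act on MAP kinases: Dusp1, Dusp2, Dusp4, Dusp5, Dusp6, Dusp7, Dusp8, Dusp10, Dusp14 and Dusp16. The peak lists of 4 libraries were joined into regions wherever peaks overlapped by 1 bp or more. A region was assigned to a Dusp gene when its centre lay inside the gene or within 100 kb of one of its transcription start sites (TSS). This rule gave 72 of the 28335 regions, at 10 of 22241 annotated protein-coding genes. The cells were MC3T3-E1, a line from mouse calvaria labelled as pre-osteoblasts, grown in serum and given DMSO vehicle or 100 nM forskolin for 1 h. Forskolin activates adenylyl cyclase and so raises cAMP. Chromatin was immunoprecipitated with an antibody to CREB phosphorylated at serine 133 and sequenced, in 2 libraries per treatment that the series calls biological replicates. All libraries come from this 1 line, so the comparison speaks for no other osteoblast source.

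Dual-specificity phosphatases of this class remove both the threonine and the tyrosine phosphate from the activation loop of ERK, JNK or p38 and so end MAP kinase signalling. Many are themselves induced by the signals they stop, which makes them feedback inhibitors. Phosphorylated CREB binds the cAMP response element (CRE) and activates transcription near it, and Dusp1 is a known target of cAMP and parathyroid hormone in osteoblasts. Binding near a gene is not a measure of its expression, and no expression was measured here.

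The sequences below are those on which the results turn, from the mm9 build (NCBIM37), read 5′ to 3′ on the strand of the gene. Capitals mark the palindromic full CRE (TGACGTCA), its core (TGACG, or CGTCA on the other strand) and the AP-1 site (TGAGTCA, or TGACTCA on the other strand). The first set is promoter sequence at regions within 1 kb of a Dusp TSS, shown because these promoters differ in which motif they hold. The Dusp1 and Dusp4 stretches run past the edge of their called regions, but the marked letters lie inside them. The Dusp10 promoter is shown because it ranked high in every library with none of these letters.
Dusp1, chr17:26645507-26645608, minus strand: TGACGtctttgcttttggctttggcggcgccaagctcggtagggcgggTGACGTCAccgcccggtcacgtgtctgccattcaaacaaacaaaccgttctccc
Dusp8, chr7:149281243-149281343, minus strand: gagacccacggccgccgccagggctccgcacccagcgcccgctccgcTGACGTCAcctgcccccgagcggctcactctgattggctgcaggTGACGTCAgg
Dusp4, chr8:35870163-35870263, plus strand: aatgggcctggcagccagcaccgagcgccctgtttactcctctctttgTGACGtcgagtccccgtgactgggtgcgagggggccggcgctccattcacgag
Dusp5, chr19:53603532-53603598, plus strand: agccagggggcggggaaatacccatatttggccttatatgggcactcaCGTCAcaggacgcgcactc
Dusp10, chr1:185858189-185858259, plus strand: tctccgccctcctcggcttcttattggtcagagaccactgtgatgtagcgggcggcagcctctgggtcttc
Dusp14, chr11:83880600-83880700, minus strand: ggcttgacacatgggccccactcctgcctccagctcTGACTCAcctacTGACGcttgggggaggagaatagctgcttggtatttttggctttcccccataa

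The second set comes from within regions that were called in both forskolin libraries and in neither vehicle library, here termed forskolin-only. They are shown for their high rank, for their short distance to a Dusp TSS or, at Dusp1, for their motifs. The pair at Dusp1 differ in motif: the nearer holds 2 AP-1 sites and no CRE core, and the farther a full CRE.
Dusp1, 6350 bp upstream, chr17:26651747-26651847, minus strand: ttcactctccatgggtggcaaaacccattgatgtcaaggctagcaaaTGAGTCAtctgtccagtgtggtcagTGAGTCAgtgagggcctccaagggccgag
Dusp1, 29711 bp upstream, chr17:26675177-26675277, minus strand: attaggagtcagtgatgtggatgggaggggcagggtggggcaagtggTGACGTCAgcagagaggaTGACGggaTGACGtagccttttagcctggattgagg
Dusp10, 25396 bp upstream, chr1:185811751-185811851, plus strand: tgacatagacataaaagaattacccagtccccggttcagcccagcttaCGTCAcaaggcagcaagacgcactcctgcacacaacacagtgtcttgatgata
Dusp10, 88646 bp downstream, chr1:185946856-185946956, plus strand: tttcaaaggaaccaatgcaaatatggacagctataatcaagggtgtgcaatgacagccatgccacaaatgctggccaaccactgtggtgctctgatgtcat
Dusp14, 4125 bp downstream, chr11:83876412-83876512, minus strand: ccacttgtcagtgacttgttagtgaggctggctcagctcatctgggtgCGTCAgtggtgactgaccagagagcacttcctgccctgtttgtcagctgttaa
Dusp14, 4116 bp upstream, chr11:83886907-83887007, minus strand: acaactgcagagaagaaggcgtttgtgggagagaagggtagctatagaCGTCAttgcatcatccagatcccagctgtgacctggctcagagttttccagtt

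Each of the 10 genes had at least 3 regions, and 8 of 10 had a region within 1 kb of a TSS, where 44.5% of all protein-coding genes had one. Forskolin-only regions stood at 6 of the 10: 4 at Dusp10, 3 each at Dusp5 and Dusp14, 2 at Dusp1 and 1 each at Dusp7 and Dusp16. None was assigned to Dusp2, Dusp4, Dusp6 or Dusp8. Among all protein-coding genes 40.0% had a forskolin-only region under the same rule, and 50.2% of those with any region at all. Within 10 kb of a TSS, forskolin-only regions were found at 2 of the 10, Dusp1 and Dusp14, against 8.88% of all genes. A region of any pattern lay within 10 kb at 9 of the 10, against 55.1% of all genes. These counts are descriptions, and no test was made of whether the Dusp genes differ from other genes.

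**Figure D1:**
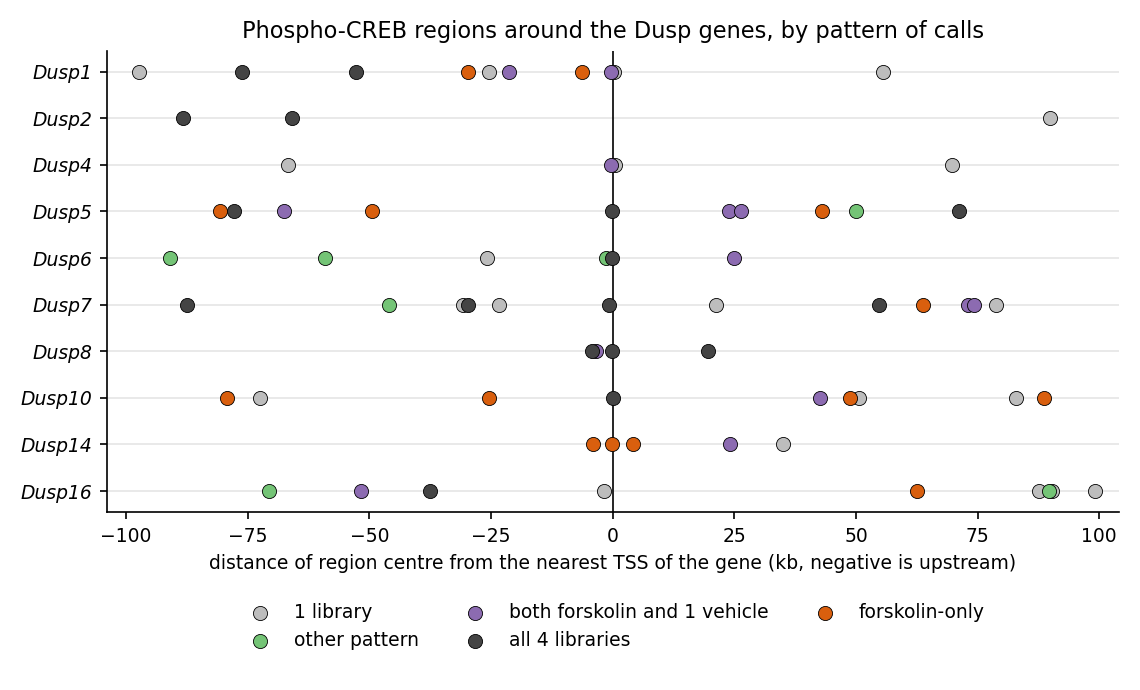
Position of the centre of each of the 72 regions relative to the nearest annotated TSS of its Dusp gene (horizontal axis, kb, negative is upstream in the direction of the gene), coloured by the libraries that called it. Dusp14 has its 3 forskolin-only regions within 10 kb, those of Dusp5 and Dusp10 lie farther out, and the pair just upstream of Dusp8 in the plot lie inside the gene, upstream of a short annotation entry at its 3′ end.

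By pattern of calls, 14 of the 72 regions (19.4%, Wilson 95% interval 11.95 to 30.03%) were forskolin-only, against 18.3% of all regions. The share at the Dusp genes was thus close to that of the whole series. No region was called in both vehicle libraries alone (0 of 72, Wilson upper limit 5.07%), against 0.441% of all regions. All 4 libraries called 17 regions (23.6%, interval 15.3 to 34.6%, against 31.5%). Both forskolin libraries and 1 vehicle library called 13 (18.1%, interval 10.9 to 28.5%, against 12.1%), and in 12 of these 13 the vehicle library was replicate 1 (16.7% of the 72 regions, against 10.6% of all). A further 21 regions (29.2%, interval 19.9 to 40.5%, against 30.2%) were called in 1 library, which was forskolin replicate 1 for 17 of them (23.6% of the 72, against 21.8% of all). Every one of these intervals held the share of all regions. The intervals cover counting error only, and neighbouring regions of 1 gene are not independent.

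**Figure D2:**
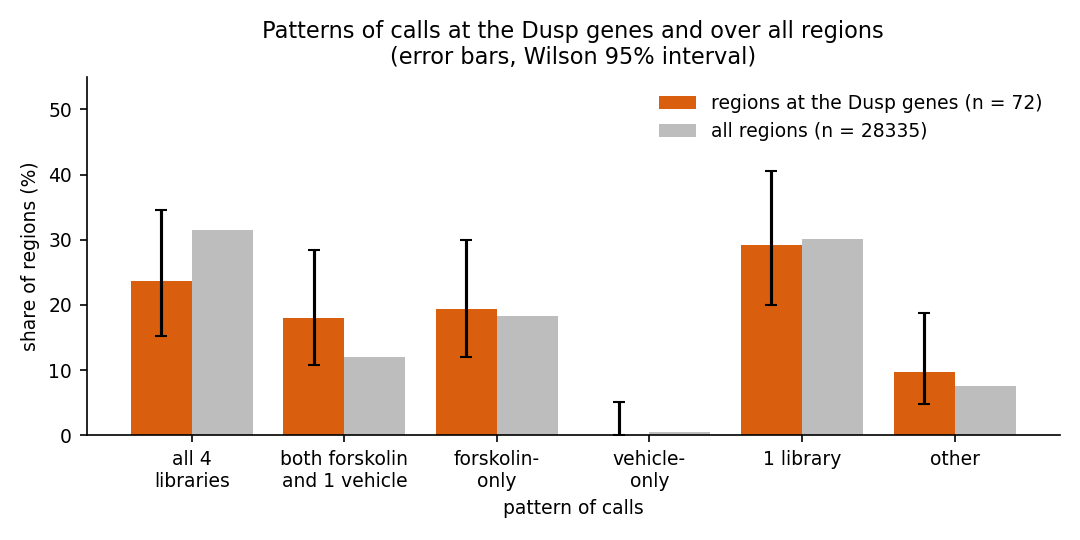
Share of regions (vertical axis, %) with each pattern of calls, for the 72 regions at the Dusp genes (orange, with Wilson 95% intervals) and for all 28335 regions (grey). The forskolin-only shares were 19.4% and 18.3%, and every interval includes the height of the grey bar.

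More regions were called at the Dusp genes in the libraries with longer lists. Vehicle replicates 1 and 2 had 36 and 23 peaks there, and forskolin replicates 1 and 2 had 68 and 45. The groups did not overlap, at 56.5 ± 16.3 peaks with forskolin and 29.5 ± 9.19 with vehicle (SD, n = 2 each), a ratio of 1.92 (exact permutation test, two-sided, p = 0.333, the smallest that 2 against 2 allows). The whole lists held 14686 and 10180 peaks with vehicle and 25566 and 19371 with forskolin, a ratio of 1.81. Per 1000 peaks of the library's own list, the Dusp genes held 2.45 and 2.26 with vehicle and 2.66 and 2.32 with forskolin, and here the groups overlapped (difference 0.136, exact permutation test, two-sided, p = 0.667). The longer forskolin lists and the treatment cannot be told apart in counts of peaks. Taking equal numbers of top-scoring peaks from every list left 6 forskolin-only regions at 3 Dusp genes, which was 16.7% of the 36 regions there, against 10.0% of all regions.

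**Figure D3:**
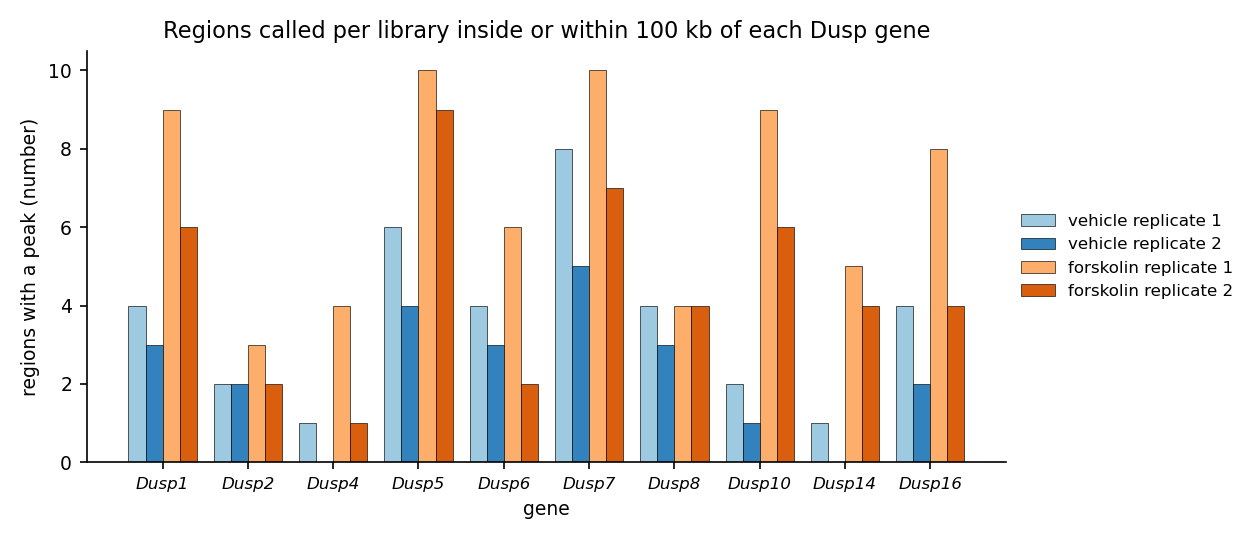
Number of regions with a peak (vertical axis) at each Dusp gene in each of the 4 libraries (bars). Forskolin replicate 1 had the most or an equal number at each gene, and vehicle replicate 2 had no peak at Dusp4 and Dusp14.

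The lists rank their peaks by a score whose scale is not stated, so each peak is given here by its percentile in its own list, where 100 is the highest score. Lists of different lengths reach different depths of weak peaks, so a percentile that differs between lists shows no change on its own.

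Dusp1, Dusp2, Dusp4 and Dusp5 encode the inducible phosphatases of the nucleus. Dusp1 (MKP-1, ENSMUSG00000024190.6, chr17:26642535-26645464, minus strand) dephosphorylates p38, JNK and ERK and had 10 regions. Its promoter region (chr17:26645542-26645929), centred 271 bp upstream of the TSS, stood at percentile 57.3 in vehicle replicate 1, was not called in vehicle replicate 2 and stood at 86.0 and 87.9 in the forskolin libraries. Vehicle replicate 2 instead had a peak of its own in the coding exon, centred 228 bp downstream of the TSS (chr17:26645040-26645342), at percentile 61.5. When peaks within 500 bp were joined, the pair became 1 region called in all 4 libraries, so this promoter had a vehicle peak in both vehicle libraries under that rule.

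The full CRE of the Dusp1 promoter shown above lay 93 bp upstream of the TSS and a further core 142 bp upstream. Farther out, Dusp1 had a pair of forskolin-only regions. That 6350 bp upstream (chr17:26651658-26651971, intergenic) stood at 82.6 and 64.3 in forskolin replicates 1 and 2. That 29711 bp upstream (chr17:26674982-26675368, intergenic) stood at 34.8 and 36.4 and lay nearer to the TSS of Gm8225. Between them, a region 21353 bp upstream stood at 52.5 in vehicle replicate 1 and at 70.6 and 73.1 in the forskolin libraries. The regions called in all 4 libraries on this side, 52820 and 76173 bp upstream, were nearest to Ergic1, and the first lay 150 bp from its TSS.

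Dusp2 (PAC-1, ENSMUSG00000027368.6, chr2:127161895-127164112, plus strand) encodes a phosphatase best known from lymphocytes. It had no region within 10 kb, and its closest region was 65812 bp away. That region lay 108 bp from the TSS of Stard7, and another, 88389 bp from Dusp2, lay 46 bp from the TSS of Ciao1. Both were called in all 4 libraries, at percentiles 81.3, 72.1, 75.1 and 79.8 at Stard7 and 92.3, 87.4, 94.5 and 91.6 at Ciao1 (vehicle replicates 1 and 2, then forskolin replicates 1 and 2). The remaining region, 89787 bp downstream, was called in forskolin replicate 1 alone.

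Dusp4 (MKP-2, ENSMUSG00000031530.6, chr8:35870351-35882948, plus strand) acts on ERK, JNK and p38. Its promoter region (chr8:35869903-35870250), centred 275 bp upstream, stood at 56.2 in vehicle replicate 1, was not called in vehicle replicate 2 and stood at 49.9 and 2.99 in the forskolin libraries. The forskolin libraries thus stood below the vehicle library that called it, with the second near the bottom of its list. The other 3 regions of Dusp4, at 436 bp and 69696 bp downstream and 66800 bp upstream, were called in forskolin replicate 1 alone. The Dusp1 and Dusp4 promoters therefore shared a pattern of calls but not an order of percentiles.

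Dusp5 (ENSMUSG00000034765.6, chr19:53603599-53616921, plus strand) encodes a nuclear phosphatase selective for ERK and had 10 regions. Its promoter region (chr19:53603317-53603672), centred 105 bp upstream, stood at 92.6 and 85.4 with vehicle and at 91.0 and 91.8 with forskolin. The groups overlapped near the top of every list. The core in the sequence above lay 17 bp upstream of the TSS. Its 3 forskolin-only regions were distal: 80698 bp upstream (chr19:53522727-53523075, 68.6 and 55.9 in forskolin replicates 1 and 2), 49381 bp upstream (49.0 and 22.2) and 43114 bp downstream (49.0 and 36.4). Next to the first, a region 77834 bp upstream (chr19:53525407-53526124) lay in an intron of 5830416P10Rik. It was called in all 4 libraries at 41.6 and 26.9 with vehicle and 78.2 and 76.3 with forskolin. The regions 80698 and 77834 bp upstream were nearest to the TSS of Smndc1. The forskolin-only region 43114 bp downstream was nearest to Nutf2-ps1, 16845 bp from its TSS. Of the 3 forskolin-only regions, only that 49381 bp upstream had the Dusp5 TSS as its nearest.

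Dusp6 and Dusp7 encode the ERK phosphatases of the cytoplasm. Dusp6 (MKP-3, ENSMUSG00000019960.6, chr10:98725865-98730122, plus strand) is a feedback inhibitor of growth factor signalling. Its promoter region (chr10:98725573-98725943), centred 107 bp upstream, stood at 73.2 and 48.7 with vehicle and at 60.1 and 58.2 with forskolin, so the forskolin values lay between those of vehicle. Of its other 5 regions, 1 was called in both forskolin libraries, 24941 bp downstream (52.5 in vehicle replicate 1, 71.0 and 58.2 with forskolin). A region 1394 bp upstream was called in vehicle replicate 2 at 24.2 and forskolin replicate 1 at 53.8.

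Dusp7 (ENSMUSG00000053716.6, chr9:106270963-106278055, plus strand) had the most regions, 12, but 6 of them lay within 1 kb of the TSS of another gene. Its own promoter region (chr9:106269960-106270335), centred 816 bp upstream, stood at 61.6 and 52.2 with vehicle and at 48.1 and 67.5 with forskolin, again overlapping. The only forskolin-only region assigned to it, 63768 bp downstream (chr9:106340508-106340929), lay 151 bp from the TSS of Acy1, which encodes an aminoacylase. It stood at 38.3 and 1.53 in forskolin replicates 1 and 2. A region 29654 bp upstream, in an intron of Poc1a but nearest to the Dusp7 TSS, was called in all 4 libraries at 51.1, 15.9, 61.9 and 58.2.

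Dusp8, Dusp10 and Dusp16 encode phosphatases that prefer JNK and p38. Dusp8 (ENSMUSG00000037887.4, chr7:149265395-149281748, minus strand) had 4 regions, and each had a peak in both forskolin libraries and also in vehicle replicate 1. The promoter region (chr7:149281210-149281535), centred 195 bp upstream of an internal TSS and in an intron of the longer transcript, stood at 29.0 and 34.5 with vehicle and at 43.7 and 62.4 with forskolin. Forskolin percentiles were above both vehicle percentiles here, but by rank among regions common to all libraries they overlapped (11.3, 29.96, 7.39 and 39.1). The 2 full CREs shown above lay 72 and 116 bp upstream of that TSS. A pair of intronic regions 11746 and 10851 bp downstream of the first TSS stood at low to middle percentiles. The latter, called in all 4 libraries, stood at 19.3 and 6.70 with vehicle and at 61.3 and 22.2 with forskolin. The remaining region lay 86 bp from the TSS of Mob2.

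Dusp10 (MKP-5, ENSMUSG00000039384.8, chr1:185837181-185899515, plus strand) had 9 regions, and a Dusp10 TSS was the nearest TSS for all 9. Of all protein-coding genes, 2.60% had at least as many forskolin-only regions as its 4, the highest count of the 10 genes. The like share was 6.50% for Dusp5 and Dusp14 (3 each), 16.8% for Dusp1 (2) and 40.0% for Dusp7 and Dusp16 (1 each). Dusp2, Dusp4, Dusp6 and Dusp8 had none. Dusp10 kept 2 within 50 kb of a TSS and 3 with equal lists. The highest-ranked of its 4 lay 88646 bp downstream of the internal TSS (chr1:185946718-185947094), at 85.7 and 76.3 in forskolin replicates 1 and 2. That 25396 bp upstream (chr1:185811626-185811944) stood at 83.4 and 71.8, and that 79289 bp upstream (chr1:185757723-185758061) at 76.1 and 71.8. The last, 48735 bp downstream, was weak, at 8.0 and 17.1. All 4 were intergenic. In contrast, the promoter region (chr1:185858084-185858395), centred 21 bp upstream of the internal TSS, was called in all 4 libraries at 87.7 and 89.9 with vehicle and at 91.9 and 91.2 with forskolin. Dusp10 thus had a high-ranked region in every library at its TSS and its forskolin-only regions at a distance from it.

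Dusp16 (MKP-7, ENSMUSG00000030203.10, chr6:134665488-134742643, minus strand) had 9 regions, of which only 1 was nearest to its own TSS, 1787 bp upstream and called in forskolin replicate 1 alone (16.7). Its forskolin-only region, 62633 bp downstream (chr6:134645915-134646295), lay in an intron of Loh12cr1 at 9.73 and 40.3. The region of Dusp16 with the highest percentiles (89.4, 82.9, 92.3 and 90.0, all 4 libraries) lay 64 bp from the TSS of Crebl2, a gene for a CREB-like protein.

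Dusp14 (MKP-6, ENSMUSG00000018648.9, chr11:83861543-83882763, minus strand) encodes a small atypical phosphatase without the domain by which the others bind MAP kinases. It had 5 regions, and its 3 forskolin-only regions were the 3 nearest to a TSS. The region 4125 bp downstream of an internal TSS (chr11:83876283-83876631, intron) stood at 47.2 and 40.3 in forskolin replicates 1 and 2. The region 54 bp upstream of that TSS (chr11:83880475-83880797, intron) stood at 47.2 and 17.1, and the region 4116 bp upstream of the gene (chr11:83886720-83887039, intergenic) at 33.6 and 17.1. Of the 10 genes, Dusp14 alone had a forskolin-only promoter region (within 1 kb), where 3.11% of all protein-coding genes had one. None of the 3 stood above percentile 50 in either forskolin list. When every list was restricted to equal numbers of top-scoring peaks, Dusp14 had no forskolin-only region. Another region, 24096 bp downstream in the 3′ UTR of Synrg, stood higher, at 81.4 and 76.3 with forskolin and 31.1 in vehicle replicate 1.

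**Figure D4:**
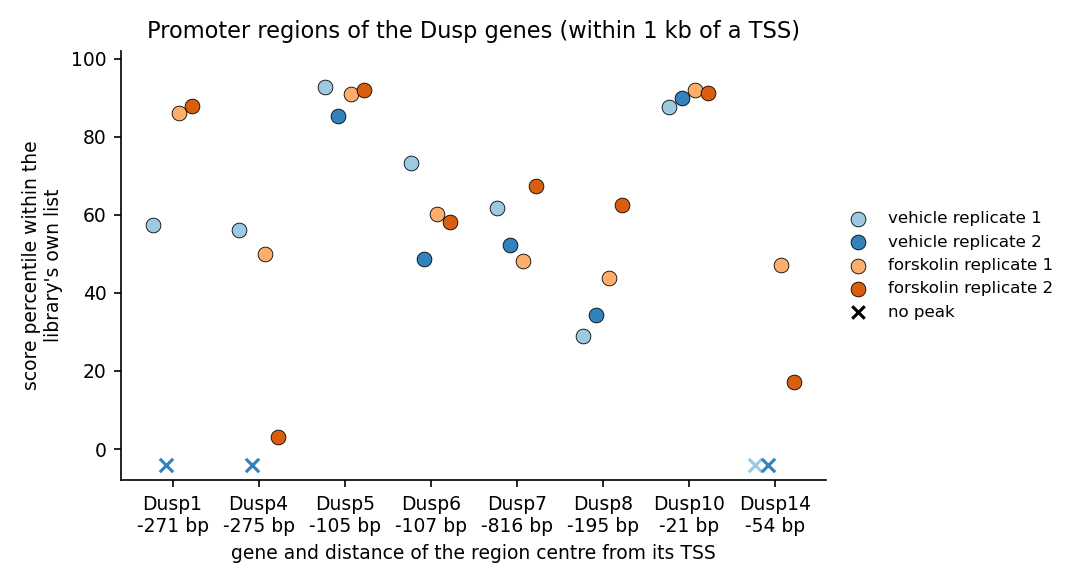
Score percentile in the library's own list (vertical axis) of the promoter region of each Dusp gene that was called in at least 2 libraries, by gene and distance of the region centre from its TSS (horizontal axis), with crosses where a library had no peak. Dusp5 and Dusp10 stand between 85.4 and 92.6 in all 4 libraries, Dusp1 stands at 86.0 and 87.9 only with forskolin, and Dusp14 has no vehicle peak.

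An all-library promoter region was found at 5 of the 10, Dusp5, Dusp6, Dusp7, Dusp8 and Dusp10, against 30.3% of all protein-coding genes. Without vehicle replicate 2, the Dusp1 and Dusp4 promoters joined them, for 7 of 10. The share of all genes was not computed without that library. Without vehicle replicate 1, the same 2 promoters were forskolin-only. The place of Dusp1 and Dusp4 thus rested on which vehicle library was counted.

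Over the 17 all-library regions, the mean forskolin percentile exceeded the mean vehicle percentile by a median of 6.46 points, and by 6.94 over all 8930 such regions. In 10 of the 17 both forskolin percentiles were above both vehicle percentiles (44.6% of all such regions), and in 0 of 17 both were below (2.51%). Ranked only among the 8930 regions common to all libraries, which removes the difference in list length, the median difference at the Dusp genes was -1.84 and that of all regions -2.32. Under these ranks 3 of the 17 had both forskolin values above both vehicle values (18.4% of all) and 3 had both below (31.3%). The distal Dusp5 region 77834 bp upstream had the largest difference, with common ranks of 20.5 and 22.8 for vehicle and 51.8 and 58.5 for forskolin. The others above were the Mob2 promoter region and the intronic region of Dusp8 at common ranks of 6.55 and 5.44 for vehicle and 23.8 and 7.61 for forskolin. Below were the Dusp6 promoter (57.7 and 43.8 for vehicle, 22.3 and 34.1 for forskolin) and the promoter regions of Ergic1 and Stard7. With 2 libraries a group, no single region could reach an exact permutation p below 0.333, and none was tested.

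**Figure D5:**
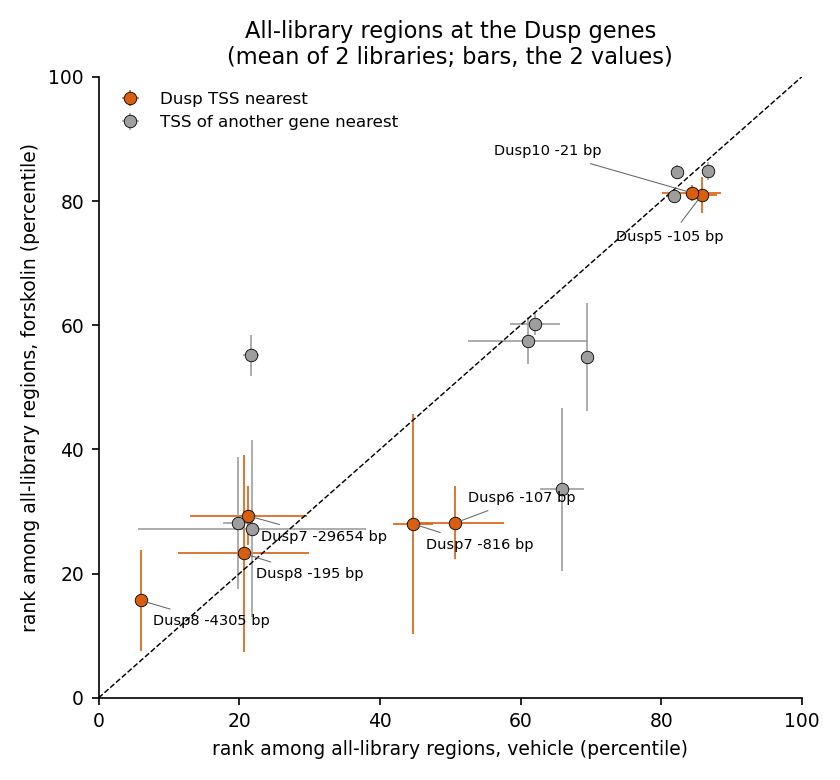
Rank among the 8930 regions called in all 4 libraries, as a percentile, for vehicle (horizontal axis) and forskolin (vertical axis) at the 17 all-library regions of the Dusp genes, where points are means and bars span the 2 libraries. The Dusp5 and Dusp10 promoters lie near the diagonal at the top, the Dusp6 promoter lies below it, and the point farthest above it, at forskolin ranks of 51.8 and 58.5, is the region 77834 bp upstream of Dusp5.

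Matches to the CRE core within 100 bp of the region centre, on either strand, were present in 20 of the 72 regions (27.8%), against 29.1% of all regions. A full CRE, which contains the core on both strands, was present in 3 (4.17%, against 3.53%) and an AP-1 site in 6 (8.33%, against 13.8%). The full CREs belonged to the Dusp1 region 29711 bp upstream, the Dusp8 promoter and the Dusp14 region in Synrg. The full CRE of the Dusp1 promoter and the core of the Dusp4 promoter lay 178 and 137 bp from the region centre and are not among these counts. Of the 14 forskolin-only regions, 7 held the core, against 38.6% of all forskolin-only regions, and 2 held AP-1 (14.3%, against 21.8%). An AP-1 site in the Dusp10 region 79289 bp upstream ran past the 100 bp limit and was not counted. All 3 forskolin-only regions of Dusp14 held a core, 2 of those of Dusp5 and 1 of those of Dusp10, where the regions 48735 and 88646 bp downstream held none of the motifs. The promoter regions of Dusp6, Dusp7 and Dusp10 held none of them anywhere in the region. A match is a description of the letters and not of binding.

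A Dusp TSS was the nearest protein-coding TSS for 37 of the 72 regions, and for 9 of the 14 forskolin-only ones. Of the 35 regions nearest to another gene, 13 lay within 1 kb of that gene's TSS, among them 8 of the 17 all-library regions. The forskolin-only regions at the Dusp genes stood at median percentiles of 48.1 and 38.3 in forskolin replicates 1 and 2, and all forskolin-only regions at 44.6 and 32.0. The median number of regions per Dusp gene was 7.5, and that of all protein-coding genes was 4.

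The rest of the MAP kinase pathway was described with lists by function, of which 37 of 70 annotated genes had a forskolin-only region inside or within 100 kb and 11 of 70 within 10 kb. Of all protein-coding genes, 40.0% and 8.88% had one at these distances, and these shares apply to each list that follows. Among genes with any region inside or within 100 kb, 50.2% had a forskolin-only one there. Of 14 MAP kinases, 7 had one within 100 kb and 4 within 10 kb. Among them were Mapk8 (JNK1), 122 bp upstream at percentiles 13.2 and 22.2 in forskolin replicates 1 and 2, Mapk14 (p38 alpha), 5863 bp downstream at 67.2 and 27.2 and 9187 bp downstream at 26.5 and 50.5, and Nlk, 5908 bp upstream at 15.0 and 27.2. JNK1 and p38 alpha are substrates of the phosphatases above.

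Among the 7 MAP kinase kinases, 4 had a forskolin-only region within 100 kb and 1 within 10 kb, Map2k4, which phosphorylates JNK and p38. Among 18 kinases of the tier above, 11 had one within 100 kb and 2 within 10 kb, Araf (55 bp upstream, 25.0 and 22.2) and Map3k12. Of 10 kinases downstream of MAP kinases, 6 had one within 100 kb and 2 within 10 kb: Rps6ka3, an S6 kinase that phosphorylates CREB, and Mapkapk3. Rps6ka3 had a pair of them, 1186 bp downstream of a TSS at 26.5 and 27.2 and 9394 bp downstream at 63.4 and 55.9. Mapkapk3 also had a pair, 2125 bp upstream at 65.3 and 44.1 and 1928 bp downstream at 29.5 and 17.1. Of 6 annotated Sprouty and Spred genes, feedback inhibitors of ERK signalling, 3 had one within 100 kb and Spred3 alone within 10 kb (60 bp upstream, 8.0 and 17.1). Of 15 other dual-specificity phosphatases, 5 had one within 100 kb and Dusp18 alone within 10 kb (7985 bp downstream, 18.5 and 8.46). The 3 of these within 1 kb of a TSS, at Mapk8, Araf and Spred3, stood below percentile 50 in both forskolin lists.

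Genes with the most similar values to a Dusp gene were found by Euclidean distance over the 4 libraries, taking each gene's highest percentile within 10 kb of a TSS and 0 where it had none. Nearest to Dusp10 were Gsk3b (distance 1.09) and Smarcd2 and Tcam1 (both 1.22). Near to Dusp5 were Klhl12 (1.53) and Maea (1.64), and nearest to Dusp14, with 0 in both vehicle libraries, were F2, Gm9991 and Esrp2 (each 0.878). Genes that share a value, as Smarcd2 with Tcam1, can share a region.

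As a check of the cell label, all 10 osteoblast marker genes had a region within 10 kb of a TSS, as had 1 of 8 markers of skeletal muscle, 2 of 8 of fat cells, 4 of 8 of cartilage cells and 2 of 7 of blood cells or osteoclasts. Of all protein-coding genes, 55.1% had a region of any pattern at that distance. Occupancy at a marker gene is not its expression. The lists give no read totals. Scores below 50 were multiples of 0.232 and 0.224 in the vehicle lists and of 0.239 and 0.688 in the forskolin lists for 98.8% to 100% of peaks (within 0.05, the rounding of the score). The coarser step of forskolin replicate 2 would be that of a shallower library if a step is 1 read, which the sources used here do not state.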

How the data were processed

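ChIP-seq peak lists of 4 libraries were used, 2 with vehicle and 2 with 100 nM forskolin for 1 h, grouped by their titles. Bowtie, HOMER and mm9 are named in the submitters' processing notes without roles or versions. The peak score in the deposited lists is the authors', on a scale that no source used here states, and served only to rank peaks within a list. All peaks of a list have 1 width (301, 303, 311 and 303 bp), and the use of an input or IgG control in calling them is not stated.

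Peaks sharing at least 1 bp were merged and classed by the libraries that called them. Genes were the protein-coding entries of GENCODE M1 on NCBIM37, joined by symbol, which gave Dusp8 2 entries. The distance of a region was taken between its centre and the nearest TSS. Peaks per library were compared by an exact two-sided permutation test, and shares have Wilson 95% intervals. Motif matches were counted on either strand where the whole match lay within 100 bp of the region centre. Merging was tested on simulated lists (27016 of 27016 patterns recovered). Python 3.11.15, numpy 2.4.6, scipy 1.17.1, pandas 2.3.3, pysam 0.24.0 and matplotlib 3.10.9 were used.

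The Dusp genes, the pathway and marker lists and the tests were chosen with earlier results of these data known. All Dusp genes were to be named, with every promoter region, the highest-ranked forskolin-only region of each, the 3 most similar genes for the 3 Dusp genes with most forskolin-only regions, and pathway genes with such a region within 10 kb. The other forskolin-only regions and those called in all libraries were named after their values were seen. Spry3 and Spi1 matched no symbol of the annotation. A pathway gene and a similar gene picked by this rule are not reported here.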

Additional observations from a re-analysis of the deposited data

How the results depend on the processing

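The median rank difference of the all-library regions at the Dusp genes changed sign, from 6.46 points by whole-list percentiles to -1.84 among common regions. That of all 8930 such regions did so too, from 6.94 to -2.32. Ranking among common regions was an alternative chosen after seeing the data. The 14 forskolin-only regions became 6 with equal lists (16.7% of regions, against 10.0% of all regions). They numbered 4 of 17 (23.5%) within 10 kb and 9 of 39 (23.1%) within 50 kb. Where the Dusp TSS was nearest they were 9 of 37 (24.3%). Over all regions, at any distance, the share was 18.3%. Leaving out 1 library gave 15 to 31, with 26 without vehicle replicate 1 and 31 without forskolin replicate 2, where 29.6% and 42.4% of all regions had that pattern. Without forskolin replicate 1 the share was below that of all regions (27.3%, against 30.6%). The 6 Dusp genes with such a region became 3 with equal lists and 2 within 10 kb, and 6 to 9 leaving out 1 library. Of all protein-coding genes 8.88% had one within 10 kb, and their share was not computed under the other settings. The rank difference became 2.58 within 10 kb and 2.73 where the Dusp TSS was nearest (4.95 to 8.73 leaving out 1 library). The share with a CRE core became 38.5% within 50 kb and 47.1% of 17 regions within 10 kb (25.5% to 31.4% leaving out 1 library). The 29.1% of all regions is not matched for distance to a TSS. Within 1 kb of any TSS the share was 34.4% over all regions, and within 1 kb of a Dusp TSS it was 40% of 10 regions. All-library promoters numbered 2 in the top 50% of each list and 3 with equal lists (5 to 7 leaving out 1 library). The share of all genes with such a promoter was not computed under these settings. Pathway genes with a forskolin-only region numbered 37, and 11 within 10 kb. The difference of 27 peaks per library was 15.5 to 38.5 leaving out 1 library and 2.5 with equal lists. With the replicate number as a block it stayed 27 (exact permutation p = 0.5, the smallest for 2 pairs). The labels do not say that the numbers mark a shared batch. The replicate differences of vehicle and forskolin correlated at 0.148 over 8930 regions, and whether equal numbers shared a batch was not tested. Unstated depth limits the reading of missing vehicle peaks.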
